A study of Homo sapiens with 9 samples.

Results

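Vemurafenib-treated and cisplatin-treated A375 melanoma cells were compared directly by RNA sequencing, gene by gene. The comparison took the 3 vemurafenib and the 3 cisplatin libraries, 6 of the 9 in the series, and all 13989 of 18430 genes that passed a filter on low counts. The other 3 libraries were untreated controls in normal culture, collected at the same time. They served as the reference for genes that the 2 drugs moved in opposite directions. A375 is an established human melanoma cell line from skin, with the genotype BRAFV600E in all 9 libraries. One group received 10 µM vemurafenib for 3 days and the other 2 µM cisplatin for 1 day. Both then went back to culture without drug and were collected on day 7 after the treatment, with no word on whether the days count from its start or its end. The drugs thus differed in dose and in length of exposure, and these cannot be told apart from the compound itself. All values come from 1 cell line. No label ties the replicates to separate cultures. The p-values therefore reflect the spread among these libraries, and that spread may be technical.

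Vemurafenib blocks the mutant BRAF kinase, which keeps the MEK and ERK kinases active in such melanomas. ERK switches on cyclin D1 and growth programmes together with its own feedback inhibitors, the DUSP phosphatases and the Sprouty proteins. Cisplatin crosslinks DNA. Stalled replication and breaks then activate p53, which induces the cell cycle inhibitor p21 (CDKN1A) and its own antagonist MDM2, and p21 leads to repression of cell cycle genes through the RB and DREAM complexes. Cells that stay arrested after either kind of stress can become senescent, a state known for loss of lamin B1 and for the secretion of cytokines, growth factors and proteases.

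Levels are given as CPM, the usual counts scaled to library size, here with TMM factors, in the order of replicates 1, 2 and 3, or as mean ± SD with n = 3. Differences are vemurafenib minus cisplatin on the log2 scale from edgeR's quasi-likelihood fit, and a gene was called at a Benjamini-Hochberg adjusted p below 0.05. Library totals ran from 14481020 to 16038475 estimated counts. On the first principal component, which held 46.1% of the variance of log2 CPM, the drugs were far apart: the vemurafenib libraries scored 52.1 to 74.3 and the cisplatin libraries -55.8 to -53.0. On the third (5.8%), vemurafenib replicate 1 stood apart at 39.1, where the other two were at -22.3 and -22.7. Across genes its departure from them fell with transcript length (Spearman's rho -0.64, genes not being independent replicates). Counts of called genes in a list are given without this library too where they moved by over 1.5 times. Of the melanocyte lineage markers, SOX10 stood at 1093 ± 93.2 CPM after vemurafenib and 836 ± 50.2 after cisplatin, while TYR, TYRP1 and MLANA were below the count filter. The blood markers CD3D, at 0 in every treated library, CD3E, CD14 and PTPRC were below the filter too, as were the epithelial markers EPCAM and CDH1. Other markers of these types were present. CD68 of the blood list stood at 107 ± 9.25 CPM after vemurafenib and 226 ± 16.6 after cisplatin. The 18 epithelial markers summed to between 98.1 and 149 CPM after vemurafenib and 289 and 334 after cisplatin.

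The drugs left very different transcriptomes. Cells after vemurafenib had far more mitotic and replication transcripts, more of the neural crest receptor NGFR, the pigment enzyme DCT and the chemokine CCL2. Cells after cisplatin had more of the p53 targets, of ERK feedback genes, and of many secreted factors such as AREG, TIMP1, IGFBP3 and the prohormone convertase PCSK1. Of the 13989 genes, 3214 (23%) were higher after vemurafenib and 2905 (20.8%) were lower, 43.7% in all. By at least 1 on the log2 scale, 1138 (8.13%) were higher and 1295 (9.26%) lower. The 3 values of one drug lay wholly on one side of those of the other for 7552 genes (54%).

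**Figure D1:**
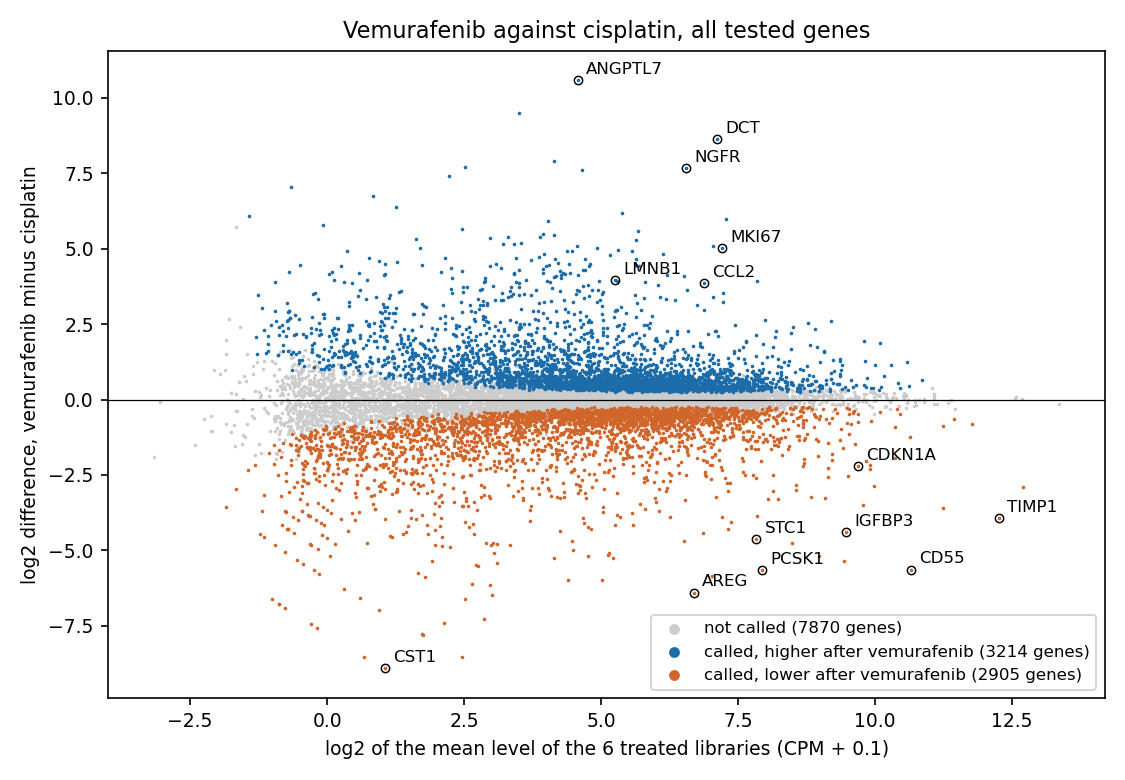
Each point is 1 of the 13989 tested genes, with the log2 of its mean level over the 6 treated libraries (CPM + 0.1) on the horizontal axis and the log2 difference, vemurafenib minus cisplatin, on the vertical axis. Blue points were called higher (3214 genes) and orange points lower (2905) after vemurafenib, and the ringed genes are described in the text, with ANGPTL7 highest and CST1 lowest.

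The largest rises towards vemurafenib were in genes nearly silent after cisplatin. DCT, the pigment enzyme dopachrome tautomerase (13:94436811-94549406, GRCh38.p14), stood at 293, 367 and 165 CPM after vemurafenib and at 1.04, 0.611 and 0.4 after cisplatin, a ratio of 403 (log2 difference 8.64, SE 0.40, adjusted p = 3.55e-08). All 3 vemurafenib libraries were far above the cisplatin libraries, and the controls, at 0, 0.0664 and 0.193, were below both. ANGPTL7, a secreted angiopoietin-like protein, was uneven, at 55.9, 78.7 and 7.71 CPM after vemurafenib against a single count in the 3 cisplatin libraries and none in the controls (ratio to cisplatin 2079.5, 95% counting interval 373 to 82170.4). Vemurafenib replicate 3 was the lowest for ANGPTL7 and also for DCT. PCSK2, a prohormone convertase of neuroendocrine granules, was even across its libraries at 55.9, 50.5 and 43.3 CPM against 0.277, 0.136 and 0.333 (log2 difference 7.60, SE 0.29). PRIMA1, the membrane anchor of acetylcholinesterase, was 257 times higher, with 52.9, 38.3 and 13.4 CPM against 0.139, 0.136 and 0.133. The matrix proteins TNN and FBLN2 (log2 differences 7.71 and 7.42) and CMTM5 (6.76) were also among the 10 largest rises, with NGFR, SEC14L5 and STXBP6, which are described with the genes that moved in opposite directions. TNN, FBLN2 and CMTM5 had 3 or fewer counts over the cisplatin libraries, so the size of their fitted differences is loose.

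At the other end stood genes almost absent after vemurafenib. The secreted cystatin CST1, a cysteine protease inhibitor, had no count in any vemurafenib library and 6.16, 3.94 and 1.73 CPM after cisplatin, and was at least 62.8-fold lower when 3 counts in the whole vemurafenib group are taken as its floor. CST2 and CST4, its close copies on the same chromosome, were also high after cisplatin. CST2 stood there at 12.9, 8.82 and 3.86 CPM and CST4 at 4.29, 3.53 and 1.2, and how reads were split between the 3 genes is uncertain. PDYN, the precursor of the opioid peptide dynorphin, stood at 13.3, 11.2 and 7.92 CPM after cisplatin with 1 count in all vemurafenib libraries (ratio 514, 95% counting interval 91.9 to 20358). The organic anion transporter SLCO2B1 went the same way (7.82, 7.6 and 3.73 CPM, also 1 count after vemurafenib). ZSCAN4, a zinc finger protein known from early embryos, was at 13.2, 14 and 20.3 CPM against 0.13, 0.125 and 0.245, a ratio of 95. CRACDL (4.15, 4.14 and 2.6 CPM against 1 count) completed the 10 with SYT12, FGF14, NWD1 and AREG, which are described with the genes that moved in opposite directions. ZSCAN4 and CRACDL also fell with vemurafenib and rose with cisplatin against the controls (log2 changes -1.81 and 4.68, and -5.73 and 1.23).

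Mitosis genes separated the drugs most of all lists examined. All 44 tested genes of spindle, checkpoint and cytokinesis were higher after vemurafenib, where 23% of all genes were, and all by at least 1 on the log2 scale. Their median difference was 4.36, against 0.03 over all genes, with the smallest at 1.40 and the largest at 6.20. In bulk samples, fewer cycling cells and less of this RNA per cell cannot be told apart. MKI67, which encodes the proliferation antigen Ki-67, stood at 235, 306 and 314 CPM after vemurafenib and 10.7, 9.64 and 6.06 after cisplatin. The groups did not come near each other (log2 difference 5.02, SE 0.21, adjusted p = 2.01e-08), and both lay below the controls, at 469, 539 and 578. KIF20A, a kinesin of the spindle midzone, had the largest difference of the list, 82.2 ± 19 against 1.11 ± 0.486 CPM. CENPA, the histone H3 of centromeres, stood at 10.7 ± 2.45 against 0.205 ± 0.122 CPM, and the spindle protein DLGAP5 at 29.9 ± 4.63 against 0.658 ± 0.152. Against the controls, which both comparisons share, the list's median was -1.04 for vemurafenib (0 of 44 higher, all 44 lower, where 22% and 22.9% of all genes were) and -5.40 for cisplatin (0 higher, all 44 lower, where 22.7% and 23.5% were). By these calls all 44 lay between the untreated and the cisplatin-treated level after vemurafenib.

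Promoters of mitotic genes are known to carry the cell cycle homology region (CHR), the element through which the DREAM complex and FOXM1 act, and promoters of replication genes carry E2F elements. KIF20A, with the largest difference of the mitosis list, does not hold the CHR letters TTTGAA in its window. MKI67, a holder, was taken from the fixed panel. CENPA and DLGAP5 had the largest differences among the mitosis genes that hold the letters. The following windows of these holders, from RefSeq (GRCh38.p14), run from 250 bases before to 50 after each gene's start. The letters, on either strand, are in capitals.
MKI67 (chr10:128126374-128126673, minus strand): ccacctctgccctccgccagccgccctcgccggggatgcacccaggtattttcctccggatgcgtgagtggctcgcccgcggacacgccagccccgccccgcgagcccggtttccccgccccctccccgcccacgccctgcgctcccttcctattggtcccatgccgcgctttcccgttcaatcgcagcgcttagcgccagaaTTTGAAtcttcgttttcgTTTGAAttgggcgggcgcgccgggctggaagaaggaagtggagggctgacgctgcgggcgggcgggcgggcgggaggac
CENPA (chr2:26785806-26786105, plus strand): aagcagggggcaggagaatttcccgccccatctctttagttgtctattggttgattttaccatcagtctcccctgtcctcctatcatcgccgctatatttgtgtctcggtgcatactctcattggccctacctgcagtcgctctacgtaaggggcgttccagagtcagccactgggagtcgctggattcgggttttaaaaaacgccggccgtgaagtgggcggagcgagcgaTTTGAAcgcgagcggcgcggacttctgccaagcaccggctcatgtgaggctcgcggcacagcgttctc
DLGAP5 (chr14:55191536-55191835, minus strand): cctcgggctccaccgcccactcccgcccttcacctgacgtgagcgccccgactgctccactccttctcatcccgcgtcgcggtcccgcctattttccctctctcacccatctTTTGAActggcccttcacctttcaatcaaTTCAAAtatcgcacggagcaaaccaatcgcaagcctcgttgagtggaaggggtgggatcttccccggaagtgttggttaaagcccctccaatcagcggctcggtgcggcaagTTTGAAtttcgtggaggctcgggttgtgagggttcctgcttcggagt

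In these windows the match of CENPA began 18 bases before the start, the 2 of MKI67 began 47 and 29 bases before it, and those of DLGAP5 began 138 and 109 bases before and 3 bases after it. TTTGAA occurred in 28 of the 38 mitosis genes with a window (73.7%), in 2 of 36 replication genes (5.56%) and in 15.4% of all 27305 windows (10% of those of tested genes). The median log2 difference was 4.47 for the mitosis genes that held it and 3.83 for the 10 that did not. All of the 10 were called as well. The window of CENPA also held the E2F letters described next, which share no base with its CHR match. A match of 6 letters is a description of the window and does not show that a factor binds there.

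**Figure D2:**
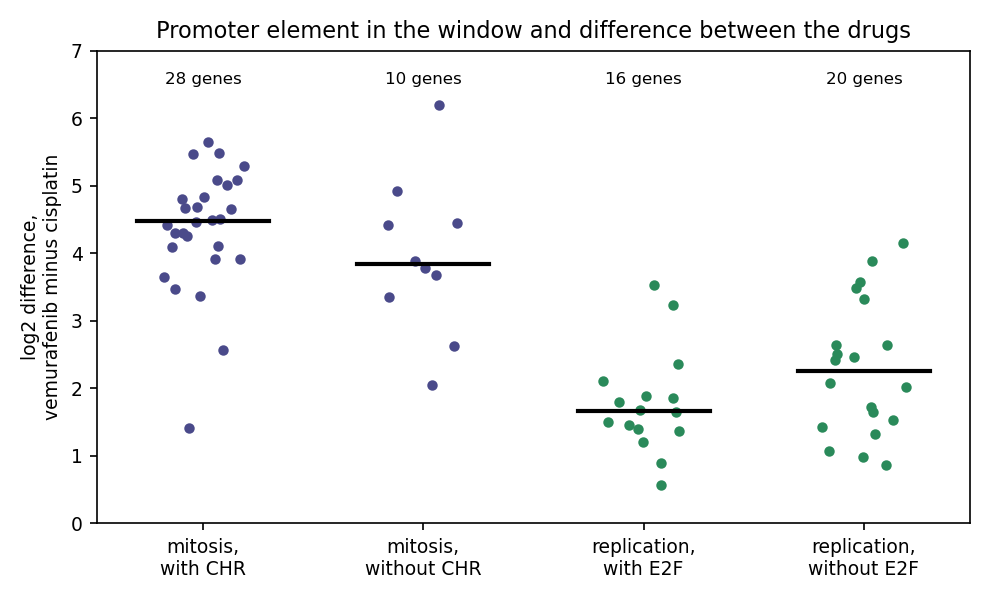
The vertical axis gives the log2 difference, vemurafenib minus cisplatin, of each mitosis gene (purple) and replication gene (green) with a promoter window, split by whether the window holds the CHR letters or the E2F letters. Black bars are medians, 4.47 and 3.83 for mitosis genes and 1.67 and 2.25 for replication genes, and every point lies above 0.

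DNA replication genes were higher after vemurafenib as well, by less. All 43 tested genes of the replication machinery and nucleotide supply were called higher, with a median of 1.72. Thymidine kinase TK1 stood at 53.3, 27 and 33.7 CPM against 2.63, 2.24 and 1.53 (log2 difference 4.15, SE 0.28). Its vemurafenib libraries overlapped neither the cisplatin nor the control libraries (74.7, 65.4 and 74.1). The origin-firing factor MCM10 stood at 20.2 ± 4.1 against 1.36 ± 0.502 CPM and the polymerase epsilon subunit POLE2 at 4.39 ± 0.747 against 0.362 ± 0.0789. Against the controls 24 of the 43 fell and 0 rose after vemurafenib (median -0.43), and all 43 fell after cisplatin (median -2.17). The E2F letters TTCCCGC, on either strand, were found in 16 of 36 windows of replication genes (44.4%), in 3 of 38 of mitosis genes (7.89%) and in 6.56% of all windows (9.94% of those of tested genes). Replication genes that held them had a median difference of 1.67 and those without 2.25. The 2 with the largest differences among the holders were GINS2, a subunit of the replicative helicase, and CLSPN, the claspin adaptor of the replication checkpoint, whose windows are shown with the letters in capitals.
GINS2 (chr16:85688905-85689204, minus strand): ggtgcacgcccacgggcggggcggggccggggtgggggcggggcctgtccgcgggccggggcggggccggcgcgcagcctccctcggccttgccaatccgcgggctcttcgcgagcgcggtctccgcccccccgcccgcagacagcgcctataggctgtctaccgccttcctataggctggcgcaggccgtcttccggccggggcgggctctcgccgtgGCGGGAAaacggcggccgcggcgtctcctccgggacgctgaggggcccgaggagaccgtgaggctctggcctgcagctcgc
CLSPN (chr1:35769929-35770228, minus strand): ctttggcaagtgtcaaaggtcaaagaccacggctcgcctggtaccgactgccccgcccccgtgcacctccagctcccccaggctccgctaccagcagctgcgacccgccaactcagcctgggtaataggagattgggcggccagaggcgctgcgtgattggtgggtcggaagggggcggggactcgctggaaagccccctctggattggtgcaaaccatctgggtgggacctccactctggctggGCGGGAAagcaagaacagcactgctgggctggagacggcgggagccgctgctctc

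The regulators above these genes were mixed. Of 30 tested, 16 were higher and 3 lower after vemurafenib. MYBL2, the B-MYB factor that drives mitotic genes, stood at 126, 67.2 and 81.5 CPM against 3.81, 3.46 and 1.67 and was not called against the controls (102, 95.4 and 108, adjusted p = 0.611). FOXM1, its partner, stood at 138 ± 22.5 against 7.84 ± 2.5 CPM, the activator E2F1 at 28.4 ± 7.95 against 4.78 ± 0.85 and E2F2 at 6.15 ± 0.75 against 0.273 ± 0.123. Cyclin D1 (CCND1), a target of ERK and the entry cyclin of G1, went the other way. It stood at 107, 114 and 182 CPM after vemurafenib and 326, 338 and 416 after cisplatin, with no overlap, while the controls were at 826, 788 and 813 (log2 difference -1.42, SE 0.18, adjusted p = 7.87e-05). The other two lower genes were E2F3 (-0.63) and CDK2 (-0.44), and the call of CDK2 was lost without cisplatin replicate 1 or 2.

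Genes of lamins and chromatin that fall in senescence kept higher levels after vemurafenib in 14 of 15 cases (median 1.44). LMNB1, lamin B1 of the nuclear envelope, stood at 75, 70 and 70.1 CPM against 4.5, 5.29 and 4.06, with controls at 127, 124 and 156. The 3 groups were in steps without overlap, and cisplatin was the lowest (log2 difference between the drugs 3.95, SE 0.14, adjusted p = 1.13e-08). HMGB2, a chromatin protein, stood at 57.9 ± 14.9 against 3.84 ± 1.43 CPM and the histone variant gene H2AZ1 at 122 ± 32.2 against 25.4 ± 1.22. CBX5, the heterochromatin protein HP1 alpha, was the single member lower after vemurafenib (63.9 ± 6.26 against 95 ± 6.18 CPM).

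Targets of p53 were lower after vemurafenib in 31 of 38 cases and higher in 2, with a median of -0.72, where 20.8% and 23% of all genes were called. CDKN1A stood at 311, 265 and 302 CPM after vemurafenib and 1209, 1337 and 1504 after cisplatin. The vemurafenib libraries lay within the range of the controls or just under it (372, 293 and 315), and the cisplatin libraries far above (log2 difference -2.20, SE 0.13, adjusted p = 1.82e-07). MDM2, the ubiquitin ligase that restrains p53, showed the same arrangement, 182, 177 and 173 CPM against 512, 477 and 547, with controls at 200.2, 138 and 156. ACER2, an alkaline ceramidase of the Golgi, had the largest difference of the list (3.13 ± 0.632 against 47.8 ± 0.474 CPM, log2 difference -3.93). Its controls, at 8.94 ± 0.287, lay between, so ACER2 fell with vemurafenib and rose with cisplatin. The death receptor gene TNFRSF10A stood at 3.9 ± 1.97 against 16.8 ± 0.547 CPM. GDF15, a secreted stress cytokine, was lower after vemurafenib as well, 6.83, 5.61 and 9.48 against 10.1, 14.2 and 17 CPM (log2 difference -0.91, SE 0.24, adjusted p = 0.00937). One of the 2 higher members was the kinase PLK2 (261 ± 19 against 184 ± 17.9 CPM). Against the controls, 28 of the 38 rose and 2 fell after cisplatin, and 8 rose and 9 fell after vemurafenib.

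CDK inhibitors and quiescence genes did not move as a block, with 3 higher, 6 lower and 11 not called of 20 (median -0.25). The share called was 45%, near the 43.7% of all genes. CDKN2C, which encodes the CDK4 and CDK6 inhibitor p18, stood at 168, 122 and 74.8 CPM after vemurafenib and 9.9, 8.01 and 8.32 after cisplatin, on either side of the controls (46.6, 42.2 and 41.9). KLF9, a factor linked to quiescence, was higher after vemurafenib at 427 ± 99.1 against 169 ± 13.3 CPM. CDKN1C, the inhibitor p57, was lower (1.07 ± 0.321 against 7.53 ± 1.16 CPM), as was the antiproliferative gene BTG2 (22.9 ± 3.33 against 68.1 ± 3.3). The third higher call, CDKN1B (0.36), was lost without cisplatin replicate 3. Between the drugs, the inhibitor CDKN2C was thus higher after vemurafenib, and CDKN1C and CDKN1A were higher after cisplatin. CDKN1A rose against the controls with cisplatin, whereas CDKN1C fell against them with both drugs, by less with cisplatin.

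DNA repair genes were higher after vemurafenib in 30 of 40 cases and lower in 1, with a median of 0.95. The exonuclease EXO1 stood at 32.2, 27.6 and 44.6 CPM against 3.39, 2.78 and 2.4, and every vemurafenib library was several times above every cisplatin library. POLQ, the polymerase of theta-mediated end joining, stood at 20.6 ± 6.6 against 1.86 ± 0.36 CPM. The excision repair subunit ERCC1 was the exception (143 ± 26.6 against 235 ± 8.25 CPM, log2 difference -0.72). Against the controls, 30 of the 40 fell and 1 rose after cisplatin, and 19 fell and 3 rose after vemurafenib. Many of these genes are transcribed with the cell cycle, whose genes differed in the same direction, and the part of that in the repair list was not tested.

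**Figure D3:**
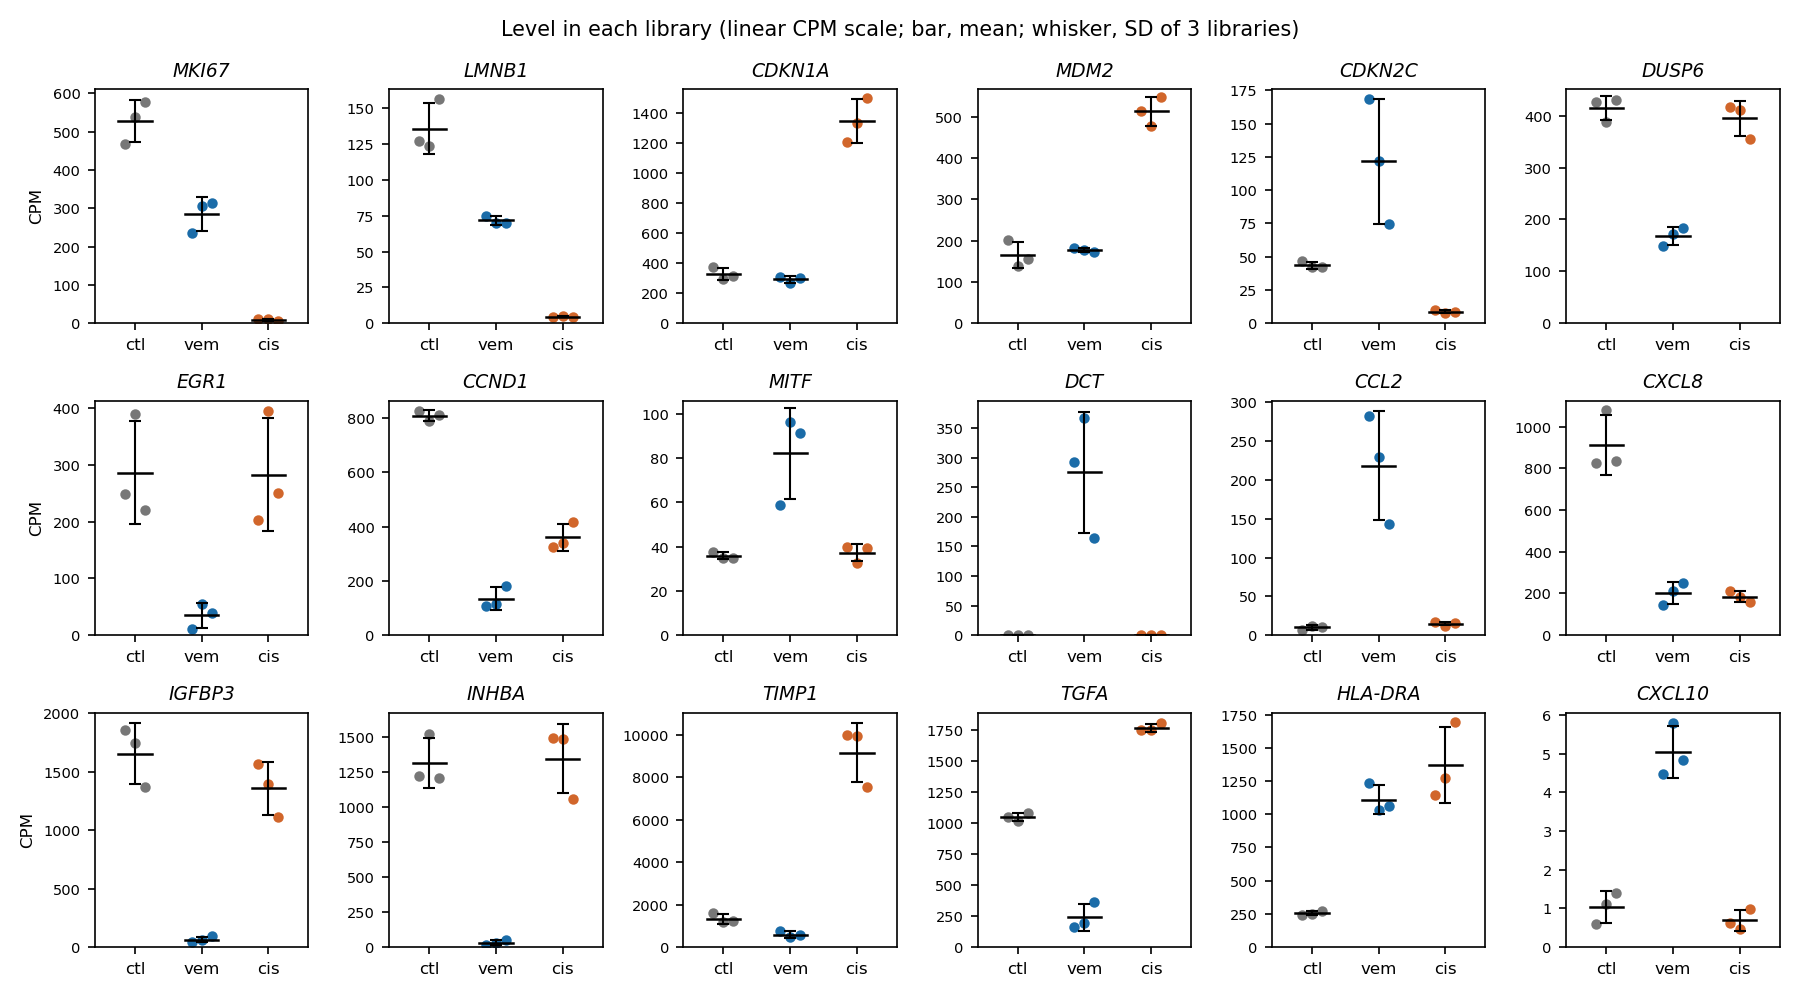
Level of 18 genes in each library (linear CPM on the vertical axis; ctl, control; vem, vemurafenib; cis, cisplatin). Points are the 3 libraries, bars the mean and whiskers the SD, and MKI67, LMNB1 and CCL2 are lower and CDKN1A, MDM2, TIMP1 and TGFA higher after cisplatin than after vemurafenib, while CXCL8 and HLA-DRA overlap between the drugs.

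Transcriptional output of ERK was lower after vemurafenib than after cisplatin, days after the inhibitor was withdrawn. Of 35 targets and feedback inhibitors, 28 were lower and 4 higher, with a median of -1.18. DUSP6, the phosphatase of ERK, stood at 149, 172 and 183 CPM after vemurafenib and 418, 411 and 355 after cisplatin, and the cisplatin libraries overlapped the controls (426, 389 and 430.3). The Sprouty inhibitor SPRY4 stood at 49, 46.6 and 86.3 against 349, 339.5 and 280.2 CPM (log2 difference -2.41, SE 0.21, adjusted p = 3.16e-06). EGR1, an immediate early transcription factor, was variable at 10.4, 54.7 and 38.9 CPM against 203, 394 and 249.7, and even so the drugs did not overlap (log2 difference -3.02, SE 0.48). EGR2, its relative, had the largest difference of the list, 1.56, 2.74 and 1.28 against 76.4, 87.5 and 38.5 CPM around controls of 21.2, 17 and 15. The ephrin receptor EPHA4 stood at 1.87 ± 0.979 against 24.1 ± 3.34 CPM. The 4 higher members were BCL2L11 (1.06), which encodes the pro-apoptotic BIM that ERK signalling lowers, DUSP7 (0.86), EPHA2 (0.81) and the AP-1 subunit FOSL1 (0.64). Against the controls, 28 of the 35 fell and 2 rose after vemurafenib, and 14 fell and 4 rose after cisplatin (medians -1.51 and -0.24).

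AP-1 factors and regulators of apoptosis followed in part. Among 14 AP-1 genes 7 were lower and 2 higher after vemurafenib (median -0.45). JUNB stood at 139, 87 and 90.7 against 294, 404 and 262 CPM and MAFK at 20.3 ± 4.59 against 62.5 ± 2.81. MAF, a large MAF factor, was higher instead (289.9 ± 35.6 against 176 ± 25.5 CPM), and rose against the controls with both drugs. Of 25 BCL2 family and inhibitor of apoptosis genes, 5 were higher and 8 lower (median -0.16), a share called of 52% against 43.7% of all genes. The pro-survival genes split. BCL2 was higher after vemurafenib (3.06, 3.55 and 3.24 against 0.485, 0.611 and 0.533 CPM), whereas MCL1 was lower (294, 389 and 421 against 946, 1024 and 847 CPM, log2 difference -1.35, SE 0.15) and BIRC3 was lower (67.2 ± 21.7 against 167 ± 29.1). BMF, a pro-apoptotic BH3-only gene like BCL2L11, was higher after vemurafenib, 40.6 ± 15.9 against 12.9 ± 1.25 CPM.

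Melanocyte genes did not differ in one direction. Of 21 tested, 7 were higher and 8 lower after vemurafenib, with a median of -0.07 and a mean of 0.23, which differ in sign. MITF, the transcription factor of the lineage, stood at 58.6, 96.2 and 91.2 CPM against 39.8, 32.8 and 39.2, and the cisplatin libraries lay near the controls (37.6, 34.8 and 35; log2 difference between the drugs 1.14, SE 0.17, adjusted p = 0.00021). TFAP2A, a neural crest factor, stood at 48.3, 48.8 and 47.9 against 13.1, 11.2 and 13.1 CPM. The pigment transporter SLC45A2 was the reverse. It stood at 0.39, 0 and 0.122 CPM after vemurafenib and 3.74, 4.41 and 4 after cisplatin, around controls of 0.913, 0.929 and 1.09. S100A1 (145 ± 38.7 against 674 ± 81 CPM) and OCA2, a melanosome channel (1.34 ± 0.471 against 5.33 ± 0.696), were lower after vemurafenib too. DCT and SLC45A2 both act in pigment synthesis, and DCT was high after vemurafenib and SLC45A2 after cisplatin.

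Genes of the neural crest-like and undifferentiated states of drug-tolerant melanoma were more often higher after vemurafenib than after cisplatin, 18 of 35, with 7 lower and a median of 0.66. Against the controls, more of the 35 fell than rose with either drug. After vemurafenib 10 rose and 17 fell (median -0.59), and after cisplatin 2 rose and 22 fell (median -0.73). NGFR, the low-affinity nerve growth factor receptor CD271 that marks neural crest cells (17:49495293-49515008), stood at 208, 190 and 160.3 CPM after vemurafenib and 1.04, 0.611 and 1.07 after cisplatin (log2 difference 7.67, SE 0.24, adjusted p = 7.95e-09). FOXD3, a neural crest transcription factor, stood at 101, 77.5 and 40.3 against 8.38, 8.48 and 9.46 CPM and overlapped between cisplatin and the controls (11.3, 6.97 and 5.91). The GDNF family receptor GFRA2 stood at 2.93, 2.06 and 1.9 against 0, 0.136 and 0.0666 CPM, from 3 counts over the cisplatin libraries. Some members went the other way. The receptor kinase AXL was slightly lower after vemurafenib (96.6, 99.1 and 117 against 151, 160.3 and 134 CPM, log2 difference -0.51), PDGFRA was lower (0.559 ± 0.364 against 2.24 ± 0.295 CPM), and so was NT5E, the ecto-nucleotidase CD73 (30.2 ± 8.73 against 104 ± 24.7).

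**Figure D4:**
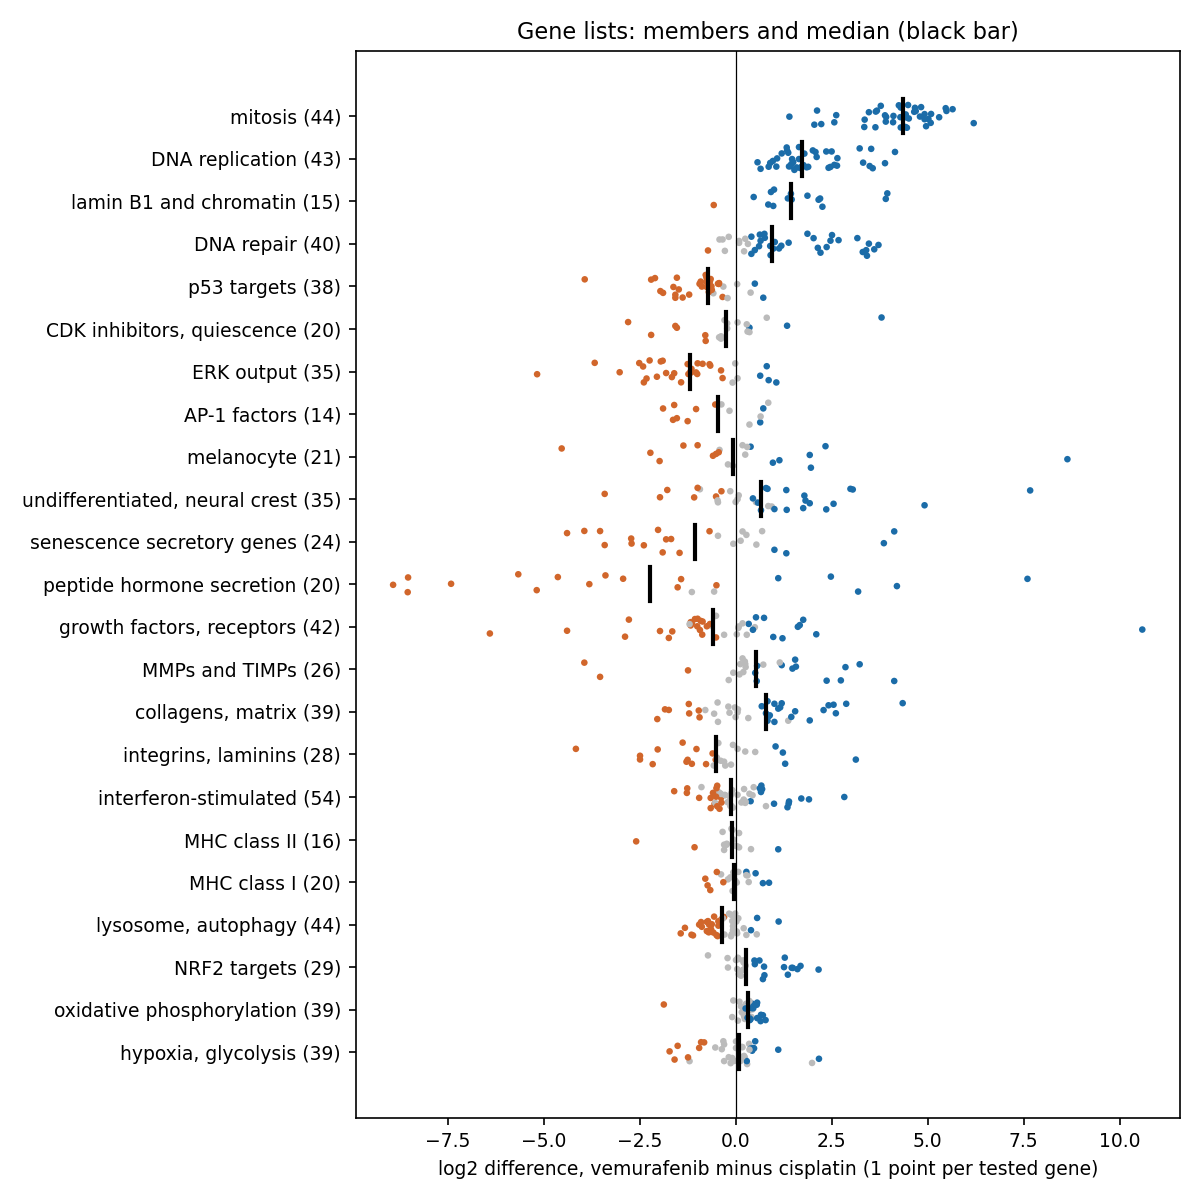
Each point is 1 tested gene of a list, placed by its log2 difference, vemurafenib minus cisplatin, with the number of tested genes in brackets and the median as a black bar. Blue genes were called higher and orange genes lower after vemurafenib, grey genes were not called, and the medians run from 4.36 for mitosis to -2.22 for peptide hormone secretion.

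The series' title asks after the secretory phenotype of vemurafenib-treated cells and names it as different from the canonical one of senescence. Of 24 tested canonical secretory genes, 13 were lower and 4 higher after vemurafenib than after cisplatin, with a median of -1.07. Against the controls, 19 of the 24 fell and 3 rose after vemurafenib (median -2.14). After cisplatin 14 fell and 2 rose (median -0.89), so most members fell with each drug. Of all genes, 22.9% fell with vemurafenib and 23.5% with cisplatin. IGFBP3, which binds and carries insulin-like growth factors, stood at 43.7, 58.9 and 91.8 CPM after vemurafenib and 1560.1, 1392 and 1114 after cisplatin, where cisplatin and control libraries (1853, 1745 and 1364) overlapped (log2 difference between the drugs -4.39, SE 0.27, adjusted p = 2.09e-07). TIMP1, an inhibitor of matrix metalloproteases, stood at 759, 467 and 560.2 against 9972, 9920.3 and 7536 CPM, with controls between at 1593, 1163 and 1252. IL1A, the upstream cytokine of this programme, stood at 13.1, 22.8 and 19.3 against 138, 121 and 103 CPM, both below the controls (221, 288 and 164). MMP10, the protease stromelysin-2, stood at 0.625 ± 0.152 against 7.36 ± 0.614 CPM.

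A few canonical genes were higher after vemurafenib. CCL2, the chemokine that draws monocytes, stood at 282, 229 and 144 CPM against 16.8, 12.2 and 16.2 (log2 difference 3.86, SE 0.27, adjusted p = 6.17e-07). The lowest vemurafenib library was far above every cisplatin and control library (6.72, 12.1 and 11). IGFBP4 (199.6 ± 35.3 against 79.9 ± 19.9 CPM) and the protease stromelysin-1, MMP3 (3.45, 3.12 and 4.53 against 0.415, 0.204 and 0 CPM), were higher as well. CXCL8, a chemokine for neutrophils, was not called: 145, 210.1 and 250.2 CPM after vemurafenib and 211, 183 and 159 after cisplatin overlapped, below controls of 823, 1078 and 836 (log2 difference 0.13, SE 0.19, adjusted p = 0.61). IL6 was below the count filter in both. Of 17 NF-kB subunits and feedback genes, 6 were lower and none was higher after vemurafenib (median -0.36). The share called was 35.3%, below the 43.7% of all genes. TRAF1, an adaptor of TNF receptors, stood at 31.6, 31.6 and 44.2 against 287, 225 and 105 CPM. Without vemurafenib replicate 1 the counts were 10 lower and 1 higher. Against the controls, 13 of the 17 fell after vemurafenib and 8 after cisplatin, and 0 rose with either drug.

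Other secreted signals differed by family. Growth factors and receptor kinases had 20 lower and 11 higher of 42 (median -0.60). Among ligands, TGFA, which binds the EGF receptor, stood at 164, 194 and 361 against 1749, 1752 and 1810.2 CPM (log2 difference -2.88, SE 0.24), and HGF, the ligand of MET, at 0.065, 0.312 and 0.306 against 5.05, 5.57 and 4.33. The receptor kinases MERTK (55.5 ± 14.2 against 12.9 ± 0.395 CPM) and PDGFRB (17.5 ± 4.93 against 5.14 ± 0.673) were higher after vemurafenib. In the TGF-beta family, INHBA, the subunit of activin A, was among the most abundant genes that differed, at 17.3, 30.1 and 50.4 CPM against 1494, 1483 and 1057 (log2 difference -5.36, SE 0.35, adjusted p = 3.09e-07). Its cisplatin libraries overlapped the controls (1217, 1516 and 1206). BMP2 (7.47 ± 1.31 against 38 ± 3.38 CPM) and BMP7 (0.812 ± 0.264 against 7.43 ± 0.829) were lower likewise, and the ligand TGFB2 was higher (3.65 ± 1.02 against 0.676 ± 0.226). The list had 10 lower and 4 higher of 25. Of the 6 IGF binding proteins, IGFBP3, IGFBP5 (-2.02) and IGFBP7 (-2.72) were lower and IGFBP4 higher, and without vemurafenib replicate 1 the lower ones were 5.

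Convertase genes of the peptide secretion list differed in both directions between the drugs. Prohormone convertases cut precursors of hormones and neuropeptides, and granins build the granules that store them. PCSK1 stood at 4.42, 8.35 and 15.7 CPM after vemurafenib and 436, 471 and 538 after cisplatin (log2 difference -5.66, SE 0.35). PCSK2, with its values given above, PCSK5 (27.5, 37.7 and 21.5 against 1.52, 1.76 and 1.4 CPM) and PCSK6 (12.9, 15.1 and 12.3 against 1.18, 1.63 and 1.6) were all on the vemurafenib side, with no overlap. Against the controls, PCSK5 and PCSK6 were not called after cisplatin (log2 changes -0.33 and 0.06). PCSK2 was called higher with both drugs (9.92 and 2.32), with 11 counts after cisplatin and 2 in the controls. The list of convertases, granins, neuropeptides and cystatins had 13 lower and 5 higher of 20, with a median of -2.22. The granin VGF and the calcium-regulating hormone STC1, chosen after their values were seen, were at 27.2 and 17.7 CPM on average after vemurafenib and at 983 and 437 after cisplatin.

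Metalloproteases and their inhibitors leaned towards vemurafenib, with 12 higher and 3 lower of 26 (median 0.53). MMP15, a membrane-bound metalloprotease, stood at 342, 244 and 226 against 24.5, 25.8 and 36.4 CPM. The collagenase MMP8 stood at 65.8, 72 and 91.4 against 7.55, 7.8 and 16.2 CPM. For both, vemurafenib libraries were above all cisplatin and control libraries. The inhibitors TIMP1, given above, and TIMP3 (938 ± 175 against 2222 ± 267 CPM) were lower. Collagens and matricellular proteins had 20 higher and 7 lower of 39 (median 0.79). THBS1, thrombospondin-1, stood at 898, 1232 and 905 against 138, 148 and 211 CPM. POSTN, periostin, stood at 5.98, 9.04 and 11.8 against 0.277, 0.407 and 0.599 CPM and COL8A1 at 26.7 ± 6.9 against 3.61 ± 1.14. COL6A3 (4.46 ± 0.823 against 16.1 ± 5.51 CPM) and COL13A1 (1.01 ± 0.332 against 4.15 ± 1.19) were lower after vemurafenib, and both fell against the controls with either drug.

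Of adhesion receptors and their ligands, 13 of 28 integrins and laminins were lower after vemurafenib, 4 higher and 11 not called (median -0.50). ITGA10, a collagen-binding integrin subunit, stood at 3.64, 3.43 and 8.08 against 113, 94 and 64.5 CPM, with controls at 6.98, 6.37 and 6.93. It was high only in the cisplatin libraries. ITGB3, the beta subunit of the vitronectin receptor, stood at 32.9, 64.2 and 82.4 against 402, 328 and 280.3 CPM, and ITGA1 at 49.3, 100.3 and 104 against 500, 440.4 and 486. Both were below the controls with either drug. ITGA11 (13.3 ± 1.93 against 1.51 ± 0.459 CPM) and the laminin chain LAMC1 (2139 ± 382 against 912 ± 102) were higher after vemurafenib. Among Wnt and Notch genes, 11 were lower and 6 higher of 38, a share called of 44.7%, near the 43.7% of all genes. The Notch ligand JAG1 stood at 8.85, 12.8 and 25.5 against 128, 132 and 128 CPM, while HEY1, a Notch target, was higher (19.2 ± 2.49 against 5.01 ± 0.792). Axon guidance genes had 15 lower and 11 higher of 36, with the receptor ROBO1 (231 ± 67.7 against 88.4 ± 0.497 CPM) and its ligand SLIT2 (25.6 ± 7.64 against 7.22 ± 0.69) higher and the semaphorin co-receptors PLXNA2 (-2.85) and NRP1 (-1.67) lower.

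Some genes lay on opposite sides of the controls. Of the 13989, 163 (1.17%) rose with vemurafenib and fell with cisplatin, and 300 (2.14%) did the reverse. With at least 1 on the log2 scale both ways, these were 29 (0.207%) and 101 (0.722%). Both comparisons share the 3 control libraries, and the direct difference of genes picked in this way is a description with no test. The count of 163 depended on single libraries: it was 292 without vemurafenib replicate 1, 98 without cisplatin replicate 2, and 97, 88 and 92 without control replicates 1, 2 and 3. The counts of larger changes ran from 20 to 30 for the 29 and from 89 to 109 for the 101 over the 9 fits that leave out 1 library, and were 12 and 48 with limma on log2(TPM + 1), a scale that understates changes of low genes.

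Among genes up with vemurafenib and down with cisplatin, NGFR stood at 6.98, 9.42 and 11.2 CPM in controls, between the 2 drugs, with log2 changes of 4.34 and -3.33. SEC14L5, a lipid transfer protein of the SEC14 family, had the largest differences but few counts on the low side. It stood at 23.8, 31.6 and 12.1 CPM after vemurafenib and 0.391, 0.929 and 0.257 in controls, with a single count after cisplatin. NR2F1, an orphan nuclear receptor of neural crest development, stood at 33.5, 35.9 and 21.1 CPM after vemurafenib, 7.17, 8.63 and 12.6 in controls and 1.39, 2.17 and 2.4 after cisplatin, without overlap between groups. DKK3, a secreted Dickkopf protein, changed by 1.87 with vemurafenib and -1.62 with cisplatin, and pleiotrophin (PTN), a heparin-binding growth factor, by 1.42 and -2.22. The carboxypeptidase CPA4 (controls 5.35, 8.76 and 10.5 CPM, vemurafenib 18.7, 24.2 and 41, cisplatin 0.415, 0.679 and 2.06) and the helix-loop-helix factor ATOH8 (2.56 and -1.63) were of the same kind. So were CDKN2C, the adhesion proteins SDK1 (1.46 and -3.03), FAT3 (2.31 and -1.46) and CLDN1 (1.38 and -1.49), and STXBP6 (3.35 and -3.05), a syntaxin-binding protein.

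Among genes down with vemurafenib and up with cisplatin, CD55 had among the highest levels. It encodes decay-accelerating factor, which protects cells from complement (1:207321678-207360966). CD55 stood at 498, 451 and 494 CPM in controls, 42.3, 54.2 and 92.3 after vemurafenib and 3465, 3376 and 2608 after cisplatin, log2 changes of -2.93 (adjusted p = 3.09e-06) and 2.71 (adjusted p = 4.67e-06). The 3 groups were far apart, and the ratio between the drugs was 50. AREG, amphiregulin, a ligand of the EGF receptor, stood at 47.1, 26.1 and 29.9 CPM in controls, 1.56, 2.18 and 3.43 after vemurafenib and 259.5, 208 and 144 after cisplatin (-3.83 and 2.57). In AREG too no library of one group reached into another. SOD3, the extracellular superoxide dismutase, stood at 26.7, 24.9 and 21.1 CPM in controls, 5.79, 3.43 and 4.1 after vemurafenib and 321, 257 and 186 after cisplatin. In PCSK1, whose controls were at 39.8, 49.3 and 44.2 CPM, the changes were -2.22 and 3.44. The intracellular growth factor FGF14, a regulator of sodium channels, stood at 0, 0.0624 and 0.184 CPM after vemurafenib, 2.74, 2.99 and 3.34 in controls and 12.4, 16.1 and 14.2 after cisplatin. The vesicle protein SYT12 (-4.68 and 3.12), NWD1 (-2.17 and 4.45), the mucin-like PARM1 (-2.39 and 2.29) and DCSTAMP, which acts in fusion of osteoclasts (-2.22 and 2.87), were of the same kind. So were SERTM1 (-2.73 and 2.12), the muscle protein XIRP2 (-2.11 and 3.77) and the uncharacterised LOC107985410 (-3.28 and 2.21). The 12 genes named in this paragraph were picked by rule from the 101 with at least 1 on the log2 scale both ways.

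**Figure D5:**
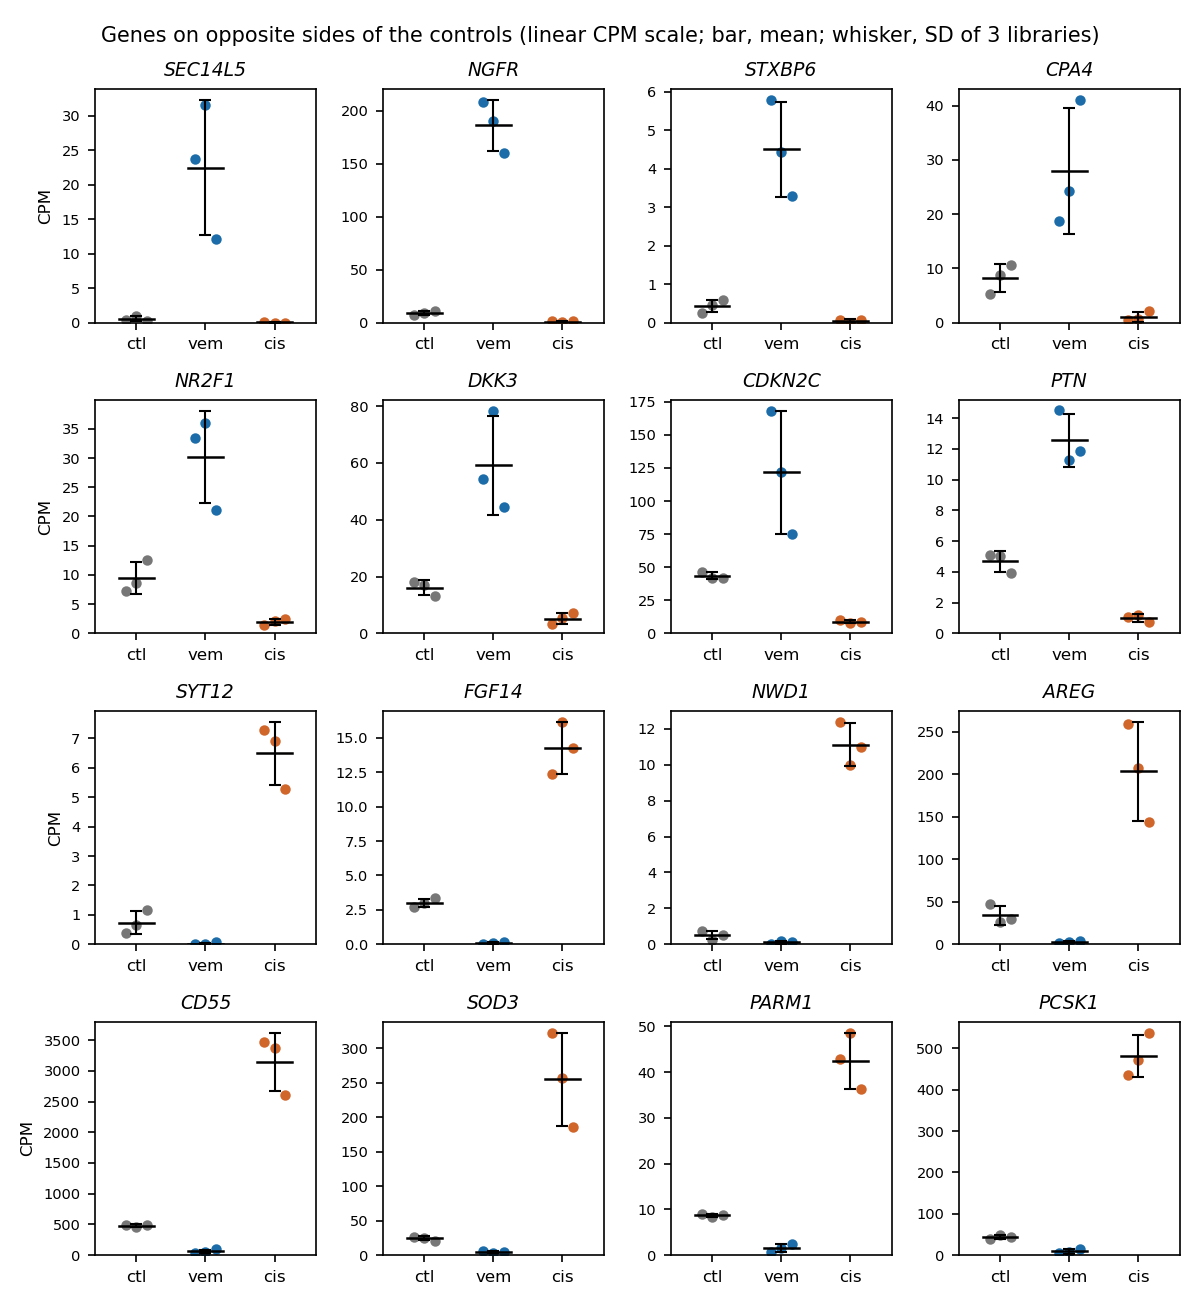
Levels (linear CPM) of 16 genes on opposite sides of the controls, in each of the 3 control (ctl), vemurafenib (vem) and cisplatin (cis) libraries. Bars are means and whiskers SD, the upper 8 genes are highest after vemurafenib and lowest after cisplatin, and the lower 8, from SYT12 to PCSK1, are the reverse.

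AREG and PCSK1 held the cyclic AMP response element letters TGACGTC on both strands of 1 palindromic place in their promoter windows. These 2 were picked, from the named genes down with vemurafenib and up with cisplatin, because their windows hold the letters. Genes with wider gaps between the drugs were passed over. AREG and PCSK1 are not the only holders.
AREG (chr4:74444886-74445185, plus strand): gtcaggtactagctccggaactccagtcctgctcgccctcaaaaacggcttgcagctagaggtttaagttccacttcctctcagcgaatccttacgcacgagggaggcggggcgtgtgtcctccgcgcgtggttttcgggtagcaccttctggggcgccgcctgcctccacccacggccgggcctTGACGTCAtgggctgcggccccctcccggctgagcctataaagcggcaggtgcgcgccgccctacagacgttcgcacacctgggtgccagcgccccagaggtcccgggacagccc
PCSK1 (chr5:96433199-96433498, minus strand): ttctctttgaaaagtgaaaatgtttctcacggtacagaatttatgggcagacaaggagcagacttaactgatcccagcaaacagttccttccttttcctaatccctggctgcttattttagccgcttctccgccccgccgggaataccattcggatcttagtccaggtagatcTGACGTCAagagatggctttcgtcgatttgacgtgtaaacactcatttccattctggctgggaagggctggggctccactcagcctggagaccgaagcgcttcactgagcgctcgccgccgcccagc

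The letters began 65 bases before the start in AREG and 77 before it in PCSK1. They were found in 5 of the 78 such genes with a window among the 101 (6.41%), and in 5.45% of the windows of all tested genes, so the group as a whole held them about as often as any tested gene. Of all windows 3.63% held them.

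Interferon and antigen presentation genes were called in both directions. Of 54 interferon-stimulated genes, 12 were higher and 16 lower after vemurafenib, a share of called genes (51.9%) near the 43.7% of all genes, with a median of -0.13 and a mean of 0.04, which differ in sign. Without vemurafenib replicate 1, 19 were higher and 20 lower, and without cisplatin replicate 1 or 2 the lower genes were 9 or 10. Against the controls, 38 rose and 4 fell with vemurafenib, and 34 rose and 2 fell with cisplatin. CXCL10, a T cell chemokine, was higher after vemurafenib (4.49, 5.8 and 4.83 against 0.623, 0.475 and 0.999 CPM), as was IFITM1 (15.7 ± 0.998 against 4.82 ± 1.19), whose close copies make the assignment of reads uncertain. TRIM22, an antiviral ubiquitin ligase, was higher after cisplatin (22.6, 26.1 and 28.9 against 8.65, 10.5 and 12.9 CPM), and so were HERC5 (-1.60) and ISG20 (-1.26). CIITA, the master regulator of MHC class II, was not called. It stood at 156, 171 and 183 CPM after vemurafenib and 149.6, 176 and 223 after cisplatin, both above the controls (38, 33.2 and 40.6; log2 difference between the drugs -0.11, SE 0.14, adjusted p = 0.582). HLA-DRA, the class II alpha chain, stood at 1237, 1029 and 1064 against 1141, 1273 and 1693 CPM (log2 difference -0.30, SE 0.15, adjusted p = 0.114), and of all alternatives run was called lower only without vemurafenib replicate 1.

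Of 16 class II genes 3 were called, HLA-DOA higher (1.11) and HLA-DQB2 (-2.59) and the thiol reductase IFI30 (-1.07) lower. Of 20 class I genes 4 were higher, among them the immunoproteasome subunits PSMB8 (0.52) and PSMB9 (0.87), and 5 lower, among them HLA-C (-0.79) and HLA-B (-0.73). The shares called were 18.8% for class II and 45% for class I, the latter near the 43.7% of all genes. Without vemurafenib replicate 1, 6 class II and 8 class I genes were lower. HLA genes are close copies, so it is uncertain how reads were shared out among them. Ligands of immune checkpoints and natural killer cells were lower in 8 of 21 cases and higher in 1, and the share called, 42.9%, was close to the 43.7% of all genes. Without vemurafenib replicate 1 the counts were 10 and 3. RAET1E, a ligand of the NKG2D receptor, stood at 0.356 ± 0.0943 against 2.35 ± 0.178 CPM. The call of CD274, which encodes PD-L1 (1.17, 1.56 and 2.2 against 3.53, 3.26 and 2.8 CPM, adjusted p = 0.0175), was lost without cisplatin replicate 1 or 2 and with limma on log2(TPM + 1) or log2(TPM + 0.1). Complement genes had 6 higher and 5 lower of 18. The protease C1S (24.7 ± 8.19 against 4 ± 0.4 CPM) and components C2 (1.55) and CFB (1.08) were on the vemurafenib side, and CD55, C7 (-4.82) and CFHR3 (-2.98) on the cisplatin side.

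Metabolic lists differed by smaller amounts. Of 29 NRF2 antioxidant targets, 14 were higher after vemurafenib and none lower (median 0.26), a share called of 48.3%. Of all genes, 43.7% were called and 23% were higher. Malic enzyme ME1 stood at 117, 178 and 114 against 27.6, 26.3 and 37.8 CPM and rose against the controls with vemurafenib while it fell with cisplatin (1.05 and -1.11). AKR1B1, an aldose reductase, stood at 160.3 ± 18.9 against 57 ± 5.2 CPM. The serine synthesis enzymes PHGDH (111, 76.7 and 108 against 18.7, 17.8 and 20.2 CPM) and PSAT1 (136, 134 and 206 against 33.5, 29 and 36.4) were the highest of the ATF4 and unfolded protein list. For both, no vemurafenib library came near a cisplatin library. The list was otherwise even at 9 higher and 8 lower of 33, a share called of 51.5% against 43.7% of all genes. DNAJB9, a chaperone of the endoplasmic reticulum, was lower after vemurafenib (23.1 ± 1.58 against 51.3 ± 1.12 CPM).

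Lysosome and autophagy genes were lower after vemurafenib than after cisplatin in 23 of 44 cases and higher in 3 (median -0.35). Against the controls, 26 of the 44 rose and 8 fell after vemurafenib (median 0.55). After cisplatin 35 rose and 2 fell (median 0.79). CTSL, CTSZ and SQSTM1 were among those that fell with vemurafenib (-0.69, -0.47 and -0.87). The proteases CTSL (67.3, 63.7 and 73.9 against 196, 178 and 179 CPM) and CTSZ (305, 264 and 258 against 616, 679 and 766) and the autophagy receptor SQSTM1 (486, 449.5 and 429.9 against 999, 1046 and 983) had no overlap between drugs. CTSK, the collagen-degrading cathepsin of osteoclasts, was the reverse (78.2 ± 6.23 against 36 ± 1.68 CPM). Cholesterol and fatty acid genes had 9 lower and 5 higher of 33, with the sterol exporter ABCA1 lower (12.7 ± 3.65 against 44.6 ± 3.28 CPM). Hypoxia and glycolysis genes were close between the drugs, 8 higher and 7 lower of 39 (4 higher without cisplatin replicate 2), with NDRG1 at 54.1 ± 6.93 against 163 ± 19.6 CPM, both below the controls (695 ± 148). The shares called were 42.4% for cholesterol and fatty acid genes and 38.5% for hypoxia and glycolysis genes, against 43.7% of all genes.

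Nuclear genes of oxidative phosphorylation were higher in 18 of 39 cases and lower in 1 (median 0.33). The share called was 48.7%, against 43.7% of all genes. Vemurafenib replicate 1, the library with the length trend, was the highest for ATP5F1C (181, 144 and 130.2 against 96.1, 85.4 and 83.2 CPM) and NDUFS8 (132, 73.7 and 72.5 against 56.6, 61 and 58.1). The call of NDUFS8 was lost without any 1 of the cisplatin replicates. The count of 18 was 10 without control replicate 3, 8, 6 and 7 without cisplatin replicates 1, 2 and 3, 8 in the 6 treated libraries alone and 28 with limma on log2(TPM + 1). Without vemurafenib replicate 1 the median was 0.18, with 16 higher and 1 lower, and the part of the length trend in the difference was not tested. Ribosomal protein genes gave 1 call of 38, RPS7, lost without cisplatin replicate 2 or 3. Without vemurafenib replicate 1 the list had 1 higher and 3 lower. Histone genes moved both ways. The variant genes CENPA, H2AZ1 and H2AX (1.79) were among the 6 higher, and the clustered genes H2BC5 (7.87, 6.55 and 8.38 against 22.7, 25.1 and 31.8 CPM), H2BC4 (-2.90) and H4C8 (-2.40) among the 11 lower of 23. Clustered histone genes are near-identical copies, so their reads may have been shared out wrongly.

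The remaining lists were mixed. Sphingolipid genes had 4 higher and 7 lower of 27 (median -0.08), and ion channel genes 8 higher and 7 lower of 27 (median 0.17). Their shares called were 40.7% and 55.6%, against 43.7% of all genes.

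Markers of other cell types differed between the drugs. Of 9 tested epithelial markers 6 were lower and 2 higher after vemurafenib, of 9 fibroblast markers 3 and 2, of 6 endothelial markers 4 and 2, and of 3 blood markers 3 and 0. The summed level of 18 epithelial markers lay between 98.1 and 149 CPM in vemurafenib libraries, 289 and 334 in cisplatin libraries and 438 and 568 in controls, with EPCAM and CDH1 below the filter. SPRR2D, a cornified envelope protein, stood at 0.26, 0 and 0.245 against 14.9, 10 and 11.7 CPM and KRT15 at 0.836 ± 0.184 against 8.89 ± 2.29. The 11 blood markers summed to between 107 and 122 CPM after vemurafenib and 240 and 289 after cisplatin, and most of this was CD68 (107 ± 9.25 against 226 ± 16.6 CPM), a lysosomal protein, and lysozyme, LYZ (5.75 ± 2.46 against 40.6 ± 10.2). Fibroblast markers summed to between 121 and 147 CPM after vemurafenib and 200 and 233 after cisplatin, and endothelial markers to between 104 and 154 and between 118 and 137. The part of any of these in the other differences was not tested.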

How the data were processed

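RNA of A375 cells was sequenced in 9 libraries, 3 for each treatment named in the labels. The submitters' processing notes name HISAT2 2.0.4 and the build hg38. Not given in the sources used here are the counting tool, its annotation and its strand setting. In 1 table the authors deposited estimated counts per gene, not whole in 13.6% to 14.1% of values (tolerance 1e-06), which were rounded here. They also deposited TPM, used for alternatives, and FPKM. The FPKM values were used here only to derive, with the counts, the transcript lengths behind the length trend. Of 18430 genes, 18153 matched RefSeq by gene ID. This gave back 26 symbols that had turned into dates.

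Genes were kept by edgeR's filterByExpr (13989) and tested with edgeR 4.0.16 in R 4.3.3 (quasi-likelihood F test, two-sided, 3 group means over 9 libraries, TMM scaling, 6 residual degrees of freedom, biological coefficient of variation 0.139), with Benjamini-Hochberg adjustment over all genes and a threshold of 0.05. SE is the log2 difference divided by the square root of F. Alternatives used DESeq2 1.42.0, limma 3.58.1 on log2(TPM + 1) and log2(TPM + 0.1), other scalings, filters and sample sets, a replicate block, and each library left out. The fit was tested on simulated data. Ratios of means with few counts carry a 95% exact binomial counting interval or a floor of 3 counts over the group. Without molecular identifiers, these cover counting error only. Library totals of 14481020 to 16038475 leave genes under about 1 CPM with few counts.

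Genes were named by a rule: the 10 largest rises and falls among called genes without overlap (at least 50 counts), up to 12 opposite-direction genes of each kind with the largest smaller change (at least 1 on the log2 scale both times), up to 3 higher and 3 lower called genes of each list (at least 20 counts), and a fixed panel. The comparison, lists and panel were chosen with earlier results of these data known, so lists are described by counts and medians with no test of their own. Promoter windows were RefSeq's, 27305 distinct windows of 300 bases, searched for letters on both strands. A few genes that the rule names are not reported here.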

Additional observations from a re-analysis of the deposited data

How the results depend on the processing

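Under the alternatives, 805 summary values stayed within the spread or within 1.5 times of the reported one, and 25 moved. No count or called value turned its direction, but medians near 0 changed sign under at least 1 alternative for 7 lists: cholesterol and fatty acid, complement, fibroblast, melanocyte, class I, class II and ribosomal protein genes. An adjusted p below 0.01 left 2130 genes higher after vemurafenib, with 63 and 150 in opposite directions. Leaving out 1 library at a time gave 2433 to 3755 genes higher and 2334 to 3402 lower, 88 to 292 up with vemurafenib and down with cisplatin, and 202 to 422 the reverse. On log2(TPM + 1) the mitosis median was 3.68, that of endothelial markers -0.30 and that of blood markers -1.06, and on log2(TPM + 0.1) the medians of these markers were -1.11 and -1.75. With the 6 treated libraries alone, canonical secretory genes had a median of -1.48, peptide secretion genes -2.95 and blood markers -1.97. With at least 1 CPM in 3 libraries, immune ligands had -0.40 and blood markers -1.95. Leaving out 1 library moved the medians of cell cycle regulators (0.53 to 0.67), the BCL2 family (-0.26 to -0.13), NF-kB genes (-0.41 to -0.20), immune ligands (-0.36 to -0.19), fibroblast markers (-0.28 to 0.52) and endothelial markers (-1.95 to -1.38). The cause of these shifts was not tested. Of the named genes, 17 lost their call under at least 1 alternative and 3 gained one, and none reversed. Groups shared replicate numbers, but same-numbered vemurafenib and cisplatin libraries deviated together only weakly (correlations 0.166, 0.013 and 0.102), and vemurafenib replicate 2 went best with cisplatin replicate 3. With the replicate block, 3346 genes were higher and 3096 lower, with 190 and 339 in opposite directions. Depth limits genes under about 1 CPM, where ratios rest on few counts.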
